A study of Mus musculus with 15 samples.

Results

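Common dendritic cell progenitors (CDPs) that lacked Batf3 were compared with wild-type CDPs, with 2 arrays a side chosen by sample title. These were 4 of the 15 Affymetrix arrays of sorted mouse bone marrow cells in the series. Of 19190 genes tested outside the sex chromosomes, 5 passed the test. Lipo3, Ifi205, Olfr432 and Ifi202b were higher without Batf3, and Gja1 was lower. Ifi202b, Ifi205 and Olfr432 lie within 4 consecutive measured genes of chromosome 1, the chromosome that also carries Batf3. No gene directly beside Batf3 passed. Of 40 genes lower without Batf3 at the next stage, 29 lay below the median of all genes in WT CDPs, where a fall would be harder to see. The 11 above it had a median CDP difference of 0.03, and 0 of them passed in CDPs.

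The Batf3 KO CDPs came from mice labelled Batf3 KO Zbtb46-GFP reporter, the Id2 KO CDPs from mice labelled Id2 KO Zbtb46-GFP chimeric and the WT CDPs from Zbtb46-GFP chimeric mice, with 2 arrays each. All groups therefore carried the Zbtb46-GFP reporter, in which green fluorescent protein reports activity of a gene of the classical dendritic lineage. Zbtb46-GFP+ c-Kit-intermediate cells of the same 3 genotypes, the next stage, had 3 arrays each. Host type differed with genotype, reporter mice against chimeric mice. The labels used here give no age, sex or strain of the mice, no donor share in the chimeras, and no word on whether a replicate was 1 mouse or a pool. P-values therefore measure only the spread between these samples, which may be technical.

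CDPs are bone marrow cells that give rise to classical dendritic cells (cDC1 and cDC2) and can give rise to plasmacytoid dendritic cells (pDCs). Batf3 is a basic leucine zipper factor of the AP-1 family without a transactivation domain of its own. It pairs with Jun proteins, acts with Irf8 at combined AP-1 and interferon regulatory factor sites, and is required for cDC1s, the subset that cross-presents antigen to CD8 T cells. Batf3 is known to act late in this lineage, when it keeps Irf8 expression high in cells that have already chosen the cDC1 fate.

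Values are log2 of the deposited signal, and differences are Batf3 KO minus WT with their standard error (SE) from limma. The test used 12 arrays on one scale, 2 for each of 6 groups, which share an estimate of the spread. Replicate 1 of each Zbtb46-GFP+ group was left out of the fit, since the median signal was 23.8 to 24.1 on those 3 arrays and 100.8 to 112.1 on the others. Across genes, the 6 CDP arrays correlated at 0.9883 to 0.9961. A gene passed at a Benjamini-Hochberg adjusted p under 0.05 over all 19190 genes. The CDP markers Flt3, Csf1r, Kit, Cx3cr1, Irf8, Spi1 and Cd34 differed by 0.04 to 0.21 and none passed. Cd74, the invariant chain of MHC class II that is abundant in mature dendritic cells, was at 6.02 and 6.46 in Batf3 KO CDPs and 6.32 and 6.17 in WT CDPs. The same probe set was at 13.03 and 13.33 in Batf3 KO Zbtb46-GFP+ cells and 13.29 and 13.53 in WT ones, so both CDP groups had the low level of the earlier stage.

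The deletion itself could not be read from CDPs. Batf3 (probe set 10352717) was at 6.96 and 7.25 in Batf3 KO CDPs, 6.87 and 7.24 in Id2 KO CDPs, and 7.12 and 7.15 in WT CDPs. The groups overlapped, with a difference of -0.03 (SE 0.18, limma adjusted p = 1). In Zbtb46-GFP+ cells the same probe set was at 6.89 and 7.32 without Batf3 and at 9.99 and 9.85 in WT. That difference was -2.82 (limma adjusted p = 3.2e-05), and the change between stages also passed (interaction 2.79, adjusted p = 0.000901). The CDP arrays thus held the Batf3 signal that the knockout kept at the later stage, and they offer no check of the genotype label. The position of these probes relative to the deletion was not analysed here.

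The sex-linked genes, left out of the test, split the groups. Xist, the RNA that coats the inactive X chromosome, was at 5.18 and 5.60 in Batf3 KO CDPs, 5.06 and 5.65 in Id2 KO CDPs, and 12.41 and 12.42 in WT CDPs. In Batf3 KO CDPs the Y-linked gene Kdm5d was higher than in WT by 3.22, Uty by 3.10 and Eif2s3y by 3.23. Genotype, host type and sex pattern cannot be told apart in the comparison with WT. Id2 KO CDPs had the sex pattern of the Batf3 KO arrays and, like WT, came from chimeric mice, so their values are given beside each gene that passed.

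The 4 genes that rose without Batf3 separated the Batf3 KO arrays from all other CDP arrays. The test called 5 of 19190 genes (0.0261%), 4 higher (0.0208%) and 1 lower (0.00521%). At an unadjusted p under 0.05 there were 242 genes (1.26%), 127 higher (0.662%) and 115 lower (0.599%), and 22 genes (0.115%) differed by more than 1 log2 unit. For 3456 genes (18.0%) the 2 groups of arrays did not overlap, with Batf3 KO higher in 9.87% of all genes and lower in 8.13%.

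Lipo3, a member of the acid lipase family on chromosome 19, had the largest rise. Its probe set (10467110) was at 8.23 and 8.32 in Batf3 KO CDPs, 6.91 and 6.74 in Id2 KO CDPs, and 5.19 and 5.63 in WT CDPs. The 3 genotypes did not overlap, with Id2 KO between the others. The difference from WT was 2.86 (SE 0.19, limma adjusted p = 0.000189), a 7.27-fold higher signal. Against Id2 KO it was 1.45 (adjusted p = 0.0346), and Id2 KO differed from WT by 1.41, which did not pass (adjusted p = 0.217).

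Ifi205 belongs to the interferon-inducible p200 family, whose proteins carry the HIN domain that binds DNA in relatives such as Aim2, and its signal in WT was higher at the later stage. It was at 9.37 and 9.28 in Batf3 KO CDPs (probe set 10360406), 7.16 and 6.33 in Id2 KO CDPs, and 7.28 and 6.71 in WT CDPs. Both Batf3 KO arrays lay above all 4 other CDP arrays. The difference from WT was 2.33 (SE 0.27, limma adjusted p = 0.0139), a 5.01-fold higher signal, and 2.58 against Id2 KO (adjusted p = 0.0074). Ifi205 lost its call without WT CDP replicate 2 (adjusted p = 0.155), without Batf3 KO CDP replicate 1 (0.22) and without Batf3 KO CDP replicate 2 (0.191).

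Ifi202b, a p200 member with HIN domains and no pyrin domain that is known to oppose Aim2, was low on the other CDP arrays. It was at 6.10 and 6.36 in Batf3 KO CDPs (probe set 10360398), 4.07 and 4.24 in Id2 KO CDPs, and 4.24 and 4.34 in WT CDPs. The Id2 KO and WT arrays covered the same narrow range and the Batf3 KO arrays stood apart from it. The difference was 1.94 (SE 0.16, limma adjusted p = 0.00103), a 3.85-fold higher signal, and 2.08 against Id2 KO (adjusted p = 0.00103).

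Olfr432 codes for an olfactory receptor, a family not known for a role in dendritic cells. Its signal was 8.38 and 8.03 in Batf3 KO CDPs (probe set 10351886), 5.77 and 6.37 in Id2 KO CDPs, and 6.10 and 6.16 in WT CDPs. As with the p200 genes, only the Batf3 KO arrays were high among the 6. The difference was 2.07 (SE 0.22, limma adjusted p = 0.00994), a 4.21-fold higher signal, and 2.14 against Id2 KO (adjusted p = 0.0074). It lost its call with any 1 of the 4 arrays left out: the adjusted p was 0.105 and 0.108 without WT CDP replicates 1 and 2, and 0.22 and 0.0548 without Batf3 KO CDP replicates 1 and 2. The p200 and olfactory receptor families hold close copies, and whether their probes bind relatives was not analysed here.

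Gja1, which codes for the connexin of gap junctions in many tissues, was the 1 gene that fell. It was at 6.43 and 6.29 in Batf3 KO CDPs (probe set 10363173), 6.79 and 6.80 in Id2 KO CDPs, and 7.36 and 7.45 in WT CDPs. The genotypes were again separate, with Id2 KO between the other two. The difference from WT was -1.04 (SE 0.13, limma adjusted p = 0.0291), and that from Id2 KO was -0.43 and did not pass (adjusted p = 1). Its call was the least steady: the adjusted p was 0.147 and 0.367 without WT CDP replicates 1 and 2, 0.22 and 0.582 without Batf3 KO CDP replicates 1 and 2, and 0.0687 with the replicate number as a block.

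**Figure D1:**
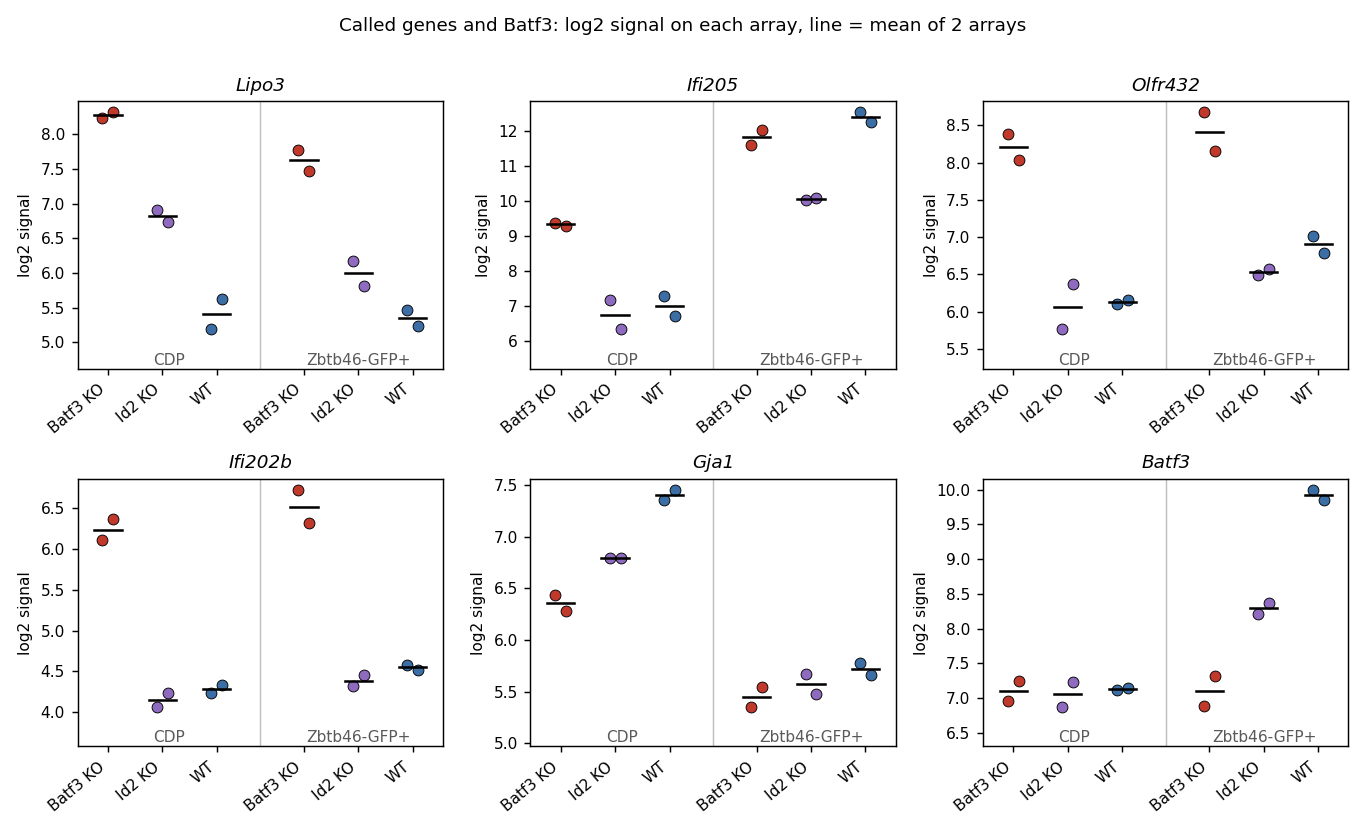
log2 signal of the 5 genes that passed in CDPs and of Batf3 on each of the 12 arrays, as points, with a line at the mean of the 2 arrays of a group; each panel has its own axis. Lipo3, Ifi205, Olfr432 and Ifi202b are higher on both Batf3 KO CDP arrays than on the other 4 CDP arrays, Gja1 is lower there, and Batf3 separates the genotypes only in Zbtb46-GFP+ cells.

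The comparison with Id2 KO CDPs shares the Batf3 KO arrays with that against WT, so the 2 results are not independent. It called 5 genes (0.0261%), Lipo3, Ifi205, Ifi202b and Olfr432 higher and A530040E14Rik lower. A530040E14Rik, a chromosome 1 transcript, was at 6.89 and 6.65 in Batf3 KO CDPs and 8.94 and 8.13 in WT CDPs. Its difference was -2.49 against Id2 KO (limma adjusted p = 0.0154) and -1.76 against WT, which did not pass (adjusted p = 0.18). Id2 KO against WT CDPs gave 0 calls with limma (0%), with 116 genes (0.604%) at an unadjusted p under 0.05.

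Batf3 complexes bind AP-1 letters alone or beside interferon regulatory factor letters, so the promoters of the genes that changed were read for both. The 250 bases before the RefSeq start (GRCm38.p6) are shown for the adjacent pair Ifi202b and Ifi205, which rose together, and for Gja1, which fell. Capitals mark a match to the AP-1 letters TGANTCA or to the interferon regulatory factor letters, which are GAAA, any 2 bases and GAAA again, on either strand. Ifi202b spans chr1:173982845-173983094 on the minus strand, Ifi205 chr1:174031756-174032005 on the minus strand and Gja1 chr10:56377050-56377299 on the plus strand.
Ifi202b: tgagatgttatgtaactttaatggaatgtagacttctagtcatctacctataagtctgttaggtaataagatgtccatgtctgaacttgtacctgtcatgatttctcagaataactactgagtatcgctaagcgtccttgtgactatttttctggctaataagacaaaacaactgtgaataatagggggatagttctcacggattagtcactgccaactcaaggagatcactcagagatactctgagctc
Ifi205: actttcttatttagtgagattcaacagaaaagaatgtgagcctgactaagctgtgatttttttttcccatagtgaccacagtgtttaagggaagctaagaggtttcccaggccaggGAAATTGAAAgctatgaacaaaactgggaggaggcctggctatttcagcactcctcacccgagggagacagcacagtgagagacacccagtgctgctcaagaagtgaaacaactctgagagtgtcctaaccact
Gja1: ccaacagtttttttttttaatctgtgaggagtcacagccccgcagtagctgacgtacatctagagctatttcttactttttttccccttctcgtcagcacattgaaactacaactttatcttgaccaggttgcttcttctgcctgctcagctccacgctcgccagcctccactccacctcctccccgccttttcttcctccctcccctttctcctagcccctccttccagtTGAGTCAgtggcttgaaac
Ifi205 held 1 interferon regulatory factor match, which begins 134 bases before the start, and Gja1 held 1 AP-1 match, which begins 19 bases before it. The windows of Ifi202b, Olfr432, Lipo3 and Batf3 held neither. Of 32851 promoter windows of this length, 2217 (6.75%) held the AP-1 letters and 978 (2.98%) the interferon regulatory factor letters. A match describes these letters only and is no measure of binding.

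The genes beside Batf3 were then examined, since a targeted locus can carry linked differences. The 10 measured genes on each side in RefSeq order had 0 calls with limma and 0 at an unadjusted p under 0.05. Their differences had a median of 0.08 and ran from -0.22 for Smyd2, a lysine methyltransferase, to 0.35 for Nsl1, a kinetochore subunit. Atf3, a stress-induced relative of Batf3 and the second measured gene after it, was at 5.93 and 6.03 in Batf3 KO CDPs and 5.78 and 5.65 in WT CDPs. Its groups did not overlap, and its difference of 0.27 (SE 0.17, adjusted p = 1) did not pass.

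Nsl1, which directly precedes Batf3, was at 9.19 and 8.98 in Batf3 KO CDPs and 8.84 and 8.63 in WT CDPs. Fam71a, which directly follows it, was at 6.08 and 5.86 in Batf3 KO CDPs and 5.84 and 5.76 in WT CDPs. In both genes the Batf3 KO arrays lay above the WT arrays, and neither passed. Of these 20 genes, 6 had groups without overlap, against 18.0% of all genes. Widening to 25 genes on each side still gave 0 calls and 0 genes at an unadjusted p under 0.05. Widening to 50, with 35 measured genes left after Batf3, gave 85 genes with 0 calls. Among them 2 (2.35%) had an unadjusted p under 0.05, against 1.26% of all genes. These 2, named after their values were seen, were Iars2 (-0.62), the mitochondrial isoleucine tRNA synthetase, and Rab3gap2 (0.59), a regulator of Rab proteins.

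Farther along chromosome 1, the 3 called genes sat almost side by side. Counted in measured genes from Batf3, with negative numbers before it, Ifi202b was at -121, Ifi205 at -120, Olfr433 at -119 and Olfr432 at -118. Olfr433, an olfactory receptor gene between the called ones, was at 7.86 and 7.56 in Batf3 KO CDPs, 6.15 and 6.70 in Id2 KO CDPs, and 6.37 and 6.07 in WT CDPs. Its difference of 1.49 did not pass (limma adjusted p = 0.0986), although its Batf3 KO arrays were again above the other 4. The 117 genes between Olfr432 and Batf3 had 0 calls with limma. At an unadjusted p under 0.05 there were 6 (5.13%), against 1.26% of all genes, a difference that was not tested. The largest was Kmo (0.93, limma adjusted p = 0.89), the kynurenine 3-monooxygenase.

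Chromosome 1 as a whole had 3 of 1122 genes called, all higher, and 30 (2.67%) at an unadjusted p under 0.05. The other autosomes had 2 of 17984 called and 211 (1.17%) at an unadjusted p under 0.05. The difference between these shares was not tested.

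**Figure D2:**
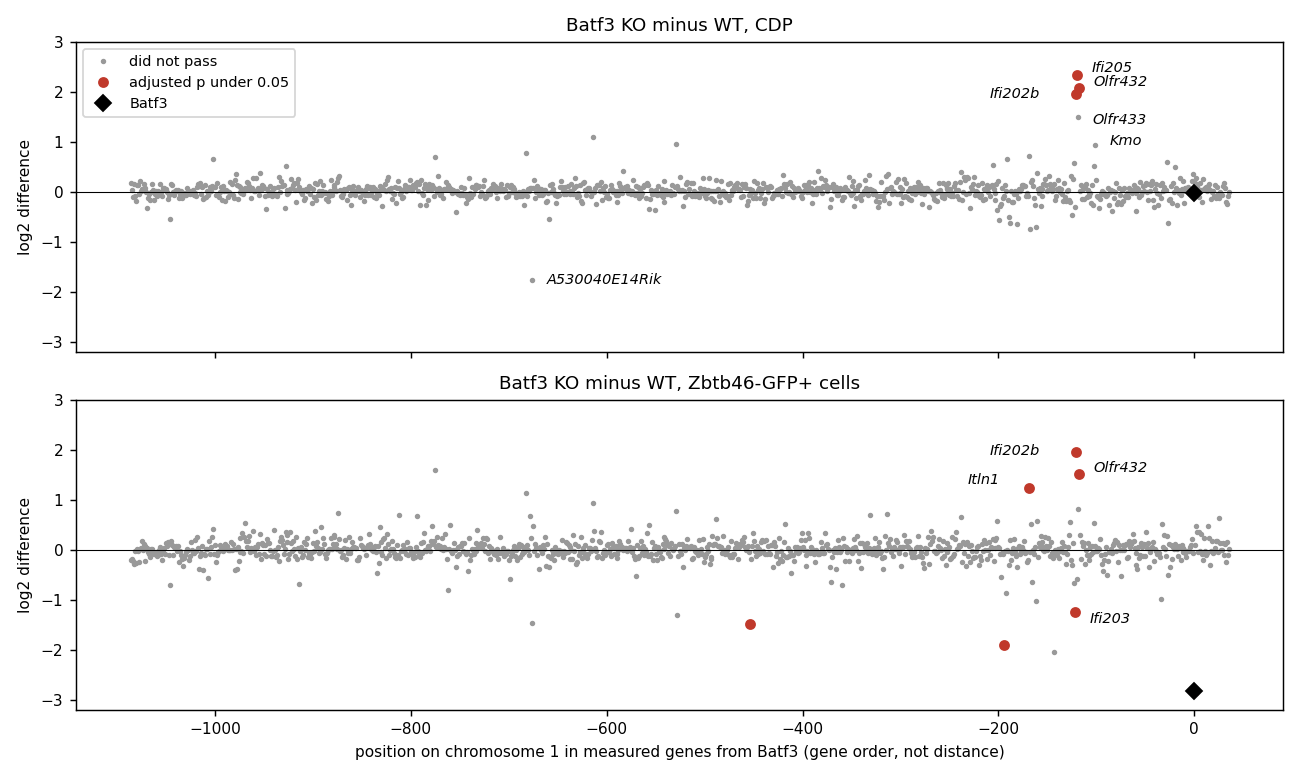
log2 difference, Batf3 KO minus WT, of each measured gene of chromosome 1 in gene order from Batf3 (black diamond), in CDPs (top) and Zbtb46-GFP+ cells (bottom); red points passed at an adjusted p under 0.05. The 3 called genes of the CDPs form 1 cluster at -121 to -118, and points around Batf3 stay near 0.

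The p200 family itself did not move as a block. Of its 10 measured genes, 2 were called, against 0.0261% of all genes, and the median difference was 0.14, beside 0.01 over all genes tested. Ifi203, next to Ifi202b, was at 10.23 and 10.52 in Batf3 KO CDPs and 10.70 and 10.66 in WT CDPs. Its difference was -0.31 and did not pass, beside a neighbour that rose. In Zbtb46-GFP+ cells Ifi203 did pass, with a difference of -1.24 (limma adjusted p = 0.00736). It averaged 10.28 in Batf3 KO, 11.37 in Id2 KO and 11.52 in WT cells of that stage. Ifi207 was at 8.66 and 8.88 in Batf3 KO CDPs and 8.23 and 8.16 in WT CDPs, a difference of 0.58 that did not pass (limma adjusted p = 1). Ifi209 differed by -0.46 and the DNA sensor Aim2 by 0.04. For 8 of the 10 genes the 2 groups did not overlap, 5 with the Batf3 KO arrays higher and 3 with them lower, against 18.0% of all genes, 9.87% higher and 8.13% lower. The family is called interferon-inducible, and a separate list of 21 interferon-stimulated genes had 0 calls with limma and a median of 0.26. Id2 KO CDPs also lay above WT CDPs on that list, by a median of 0.21. Batf3 KO minus Id2 KO CDPs had a median of 0.02 there. Against WT, members of the list ran from -0.55 for Gbp3, a guanylate-binding protein, to 0.61 for Mx2, an antiviral dynamin-like protein.

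**Figure D3:**
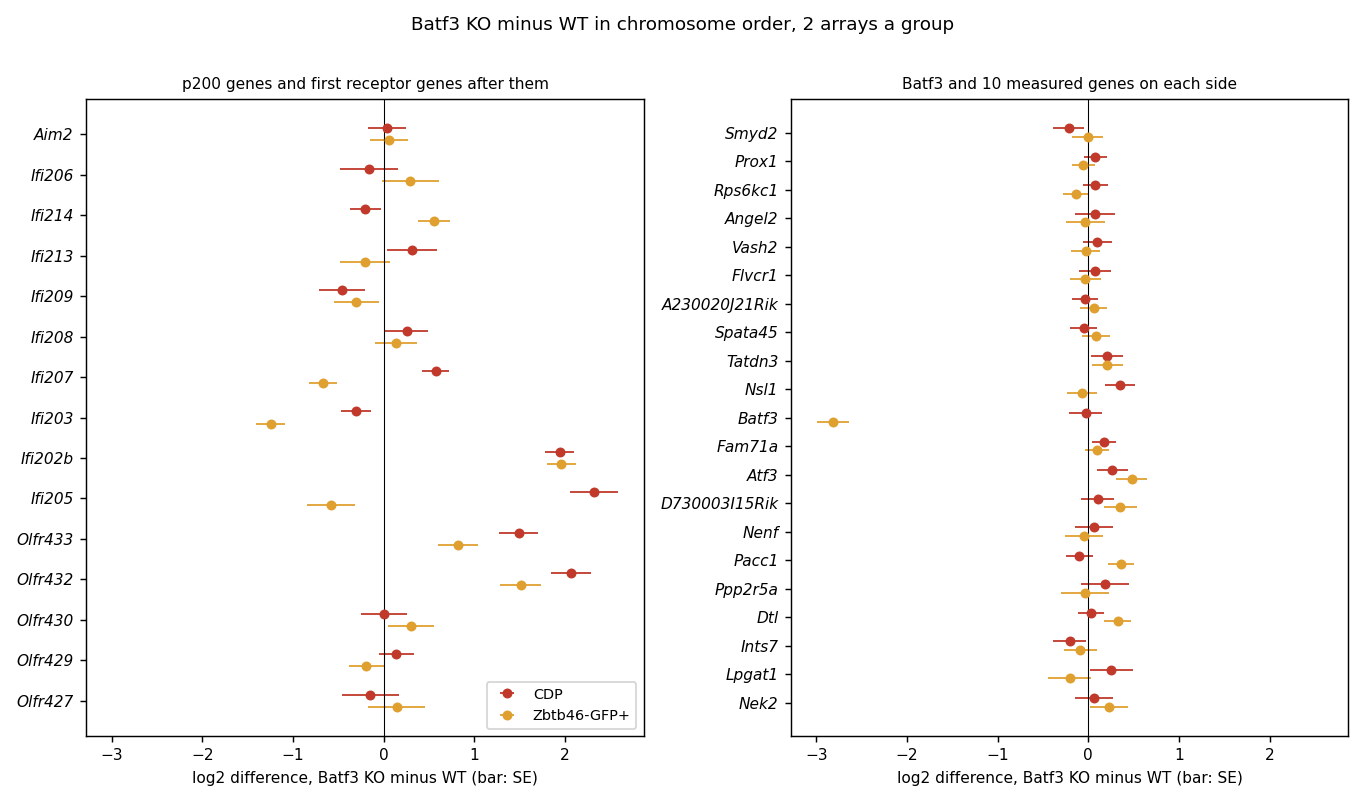
log2 difference, Batf3 KO minus WT, with its SE for the p200 genes and the receptor genes after them (left) and for Batf3 with 10 measured genes on each side (right), in CDPs (red) and Zbtb46-GFP+ cells (orange). Ifi202b and Olfr432 are above 0 in both stages, Ifi205 is above 0 in CDPs alone, and Batf3 is far below 0 in Zbtb46-GFP+ cells alone.

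The later stage, measured on other arrays of the same genotypes, showed which of these changes recurred. The arrays of that stage in the fit had the same sex split as the CDPs. Xist was at 5.28 and 5.71 in Batf3 KO Zbtb46-GFP+ cells and 11.93 and 12.27 in WT ones. Genotype and sex pattern therefore cannot be told apart in the later comparison with WT either. Id2 KO Zbtb46-GFP+ cells had the sex pattern of the Batf3 KO cells, with Xist at 5.49 and 5.66. Lipo3, Olfr432 and Ifi202b were higher in Batf3 KO than in WT cells at the later stage too. They were the 3 genes that passed in the same direction at both stages. Lipo3 was at 7.77 and 7.47 in Batf3 KO Zbtb46-GFP+ cells and 5.46 and 5.24 in WT ones, a difference of 2.27 (limma adjusted p = 0.000189). Ifi202b was at 6.72 and 6.31 in the Batf3 KO cells and 4.58 and 4.52 in WT, a difference of 1.96 (adjusted p = 0.000189). Olfr432 was at 8.67 and 8.16 in the Batf3 KO cells and 7.02 and 6.79 in WT, a difference of 1.51 (limma adjusted p = 0.0157). In Id2 KO Zbtb46-GFP+ cells Lipo3 was at 6.18 and 5.81, Ifi202b at 4.32 and 4.45 and Olfr432 at 6.49 and 6.57. Batf3 KO was not tested against Id2 KO at that stage.

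In none of these 3 genes did the change between stages pass (limma interaction adjusted p = 0.9998 each). The CDP change minus the later one was 0.59 (SE 0.26) for Lipo3, 0.56 (SE 0.31) for Olfr432 and -0.01 (SE 0.23) for Ifi202b. An equal change at both stages is not shown by this. The replicate 1 pair of that stage, on the other scale and outside the fit, had the same sex pattern in both genotypes, with Xist at 11.02 in Batf3 KO and 10.53 in WT. In that pair Lipo3 was at 6.11 in Batf3 KO and 3.83 in WT, and Ifi202b at 4.43 in Batf3 KO and 2.58 in WT. The differences were 2.28 and 1.85, from 1 array a side, and were not tested. Many genes held the same value on both arrays of the pair, among them Irf8 (8.72), Flt3 (9.09) and Olfr432 (2.87). The tie of Olfr432 is therefore no measure of its change, and the pair was not used as a further replicate.

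Ifi205 behaved differently at the later stage. It was at 11.60 and 12.04 in Batf3 KO Zbtb46-GFP+ cells and 12.53 and 12.26 in WT ones. Its level was far above that of CDPs in both genotypes, and the difference of -0.58 did not pass (limma adjusted p = 0.9998). The change in CDPs exceeded that in Zbtb46-GFP+ cells by 2.90 (SE 0.38, interaction adjusted p = 0.0182). Gja1 was at 5.35 and 5.55 in Batf3 KO Zbtb46-GFP+ cells and 5.78 and 5.66 in WT, a difference of -0.27 that did not pass (adjusted p = 0.9998).

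Most genes that were lower without Batf3 at the later stage had a signal in WT CDPs below that of the median gene. In Zbtb46-GFP+ cells 57 genes passed (0.297%), 40 lower (0.208%) and 17 higher (0.0886%) without Batf3. The sex split of those arrays holds for this comparison too. The 40 lower genes were higher in WT Zbtb46-GFP+ cells than in WT CDPs by a median of 2.07. The same WT Zbtb46-GFP+ values helped to choose these genes, so that median is partly set by the choice. In WT CDPs 29 of the 40 lay below the median of all genes tested, 6.91, where a fall would be harder to see. That median is not a detection limit, since Batf3 itself, with no CDP signal above that of the knockout, averaged 7.14. The other 11, Batf3 among them, lay above the median, with CDP differences from -0.62 to 0.30 and a median of 0.03. Of these 11, 0 passed limma's test and 2 were lower at an unadjusted p under 0.05, Gatm and Clnk. Gatm, the first enzyme of creatine synthesis, was at 8.69 and 8.66 in Batf3 KO CDPs and 9.27 and 9.32 in WT CDPs. Its groups did not overlap, and its difference of -0.62 did not pass (SE 0.16, limma adjusted p = 1). Clnk, an adaptor of immune receptor signalling, differed by -0.53 and did not pass either. Among the 29 with the lower signal, Myof (-0.56), a membrane repair protein, was lower and Shtn1 (0.35), a cytoskeletal regulator, higher at an unadjusted p under 0.05. For 15 of the 40 the change differed between stages in the interaction test, which called 19 genes over the whole table (0.099%). The CDP effect was above the later one in 16 of these (0.0834%) and below it in 3 (0.0156%).

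Some cDC1 genes, named after their values were seen, had a low signal in CDPs of both genotypes. Xcr1, the chemokine receptor of cDC1s, was at 5.66 and 5.75 in Batf3 KO CDPs and 5.56 and 5.99 in WT CDPs. Its differences were -0.07 in CDPs and -3.23 in Zbtb46-GFP+ cells (limma interaction adjusted p = 0.0202). Tlr3, the sensor of double-stranded RNA, was at 5.68 and 5.43 in Batf3 KO CDPs and 5.50 and 5.44 in WT CDPs.

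Tlr3 differed by 0.09 in CDPs and -2.23 in Zbtb46-GFP+ cells (limma interaction adjusted p = 0.000892). Cd36, a scavenger receptor, differed by -0.03 and -3.61, and Gpr141b, an orphan receptor, by 0.23 and -4.48. In WT CDPs these 4 genes averaged 4.33 for Cd36, 4.92 for Gpr141b, 5.47 for Tlr3 and 5.77 for Xcr1, so their CDP values say little about an effect at that stage. All 4 were also lower in Id2 KO than in WT Zbtb46-GFP+ cells. Xcr1 averaged 6.21 in Id2 KO and 9.43 in WT, and Gpr141b 5.82 and 10.37. Cd36 averaged 5.03 and 8.11, and Tlr3 7.79 and 11.58. Their low level was thus not seen in Batf3 KO cells alone. Fcrla, another of the 40 lower genes, averaged 9.14 in Id2 KO, 6.90 in Batf3 KO and 8.80 in WT. The 17 genes that were higher in Zbtb46-GFP+ cells had a CDP median of 0.19, with 3 called and 5 at an unadjusted p under 0.05. Beside the 3 called genes these were Stag3 and Itln1. Stag3, a cohesin subunit of meiosis, was at 8.38 and 8.22 in Batf3 KO CDPs, 6.49 and 6.92 in Id2 KO CDPs, and 7.02 and 6.33 in WT CDPs. Its difference was 1.62 in CDPs, which did not pass (limma adjusted p = 0.18), and 1.98 in Zbtb46-GFP+ cells, which did (0.00797). Itln1, a lectin gene of chromosome 1, differed by 0.72 in CDPs (adjusted p = 0.365) and 1.24 in Zbtb46-GFP+ cells (0.0015).

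**Figure D4:**
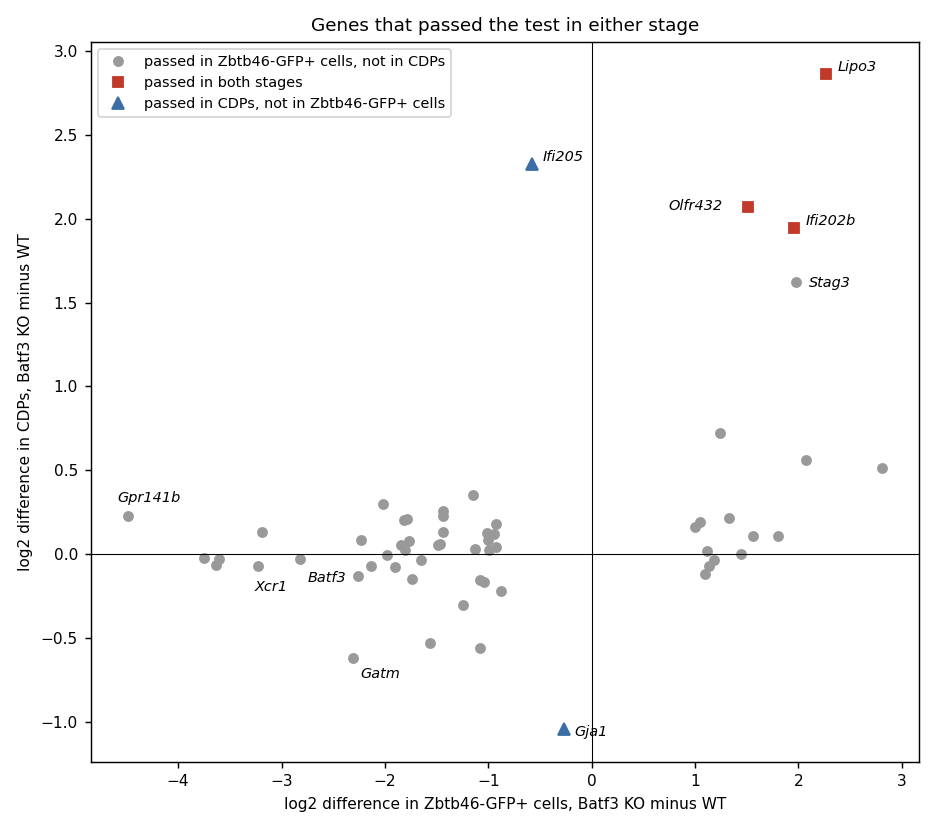
log2 difference, Batf3 KO minus WT, in CDPs against that in Zbtb46-GFP+ cells for the genes that passed in either stage. The 40 genes lower in Zbtb46-GFP+ cells spread between -0.62 and 0.35 in CDPs, where 29 of them had a WT signal below the median gene, while Lipo3, Olfr432 and Ifi202b (squares) are high in both.

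None of the transcription factors of the lineage passed in CDPs. Irf8, the partner of Batf3 and the factor on which cDC1 development rests, was at 13.10 and 12.88 in Batf3 KO CDPs and 12.93 and 12.62 in WT CDPs. The groups overlapped, with a difference of 0.21 (SE 0.15, limma adjusted p = 1). Nfil3, a basic leucine zipper factor needed early in cDC1 development, differed by 0.13, and Zeb2, which opposes that fate, by 0.08. Id2, the inhibitor of E proteins, was at 7.76 and 7.83 in Batf3 KO CDPs and 7.68 and 7.40 in WT CDPs, a difference of 0.25 (SE 0.32). The E protein gene Tcf4, which drives the pDC fate, differed by 0.15. Irf4, Cebpa and Cebpb differed by 0.10, 0.07 and 0.01, Zbtb46 by -0.15 and Id3 by -0.01. Over 30 measured DC transcription factor genes there were 0 calls with limma, a median of 0.05, and 1 gene at an unadjusted p under 0.05. The widest differences of that list were Klf4 (0.46) and Myc (-0.46).

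The relatives and partners of Batf3 did not pass either. Of 19 measured Batf and AP-1 genes 0 were called with limma and 0 had an unadjusted p under 0.05, with a median of 0.05. Batf differed by -0.03 and Batf2 by -0.00. Among their dimer partners, Jun differed by 0.14, Junb by -0.02 and Jund by 0.18.

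Genes that mark the mature subsets were described by their lists. Of 24 measured cDC1 genes 1 was called, Ifi205, and the median was 0.04 in CDPs, beside -1.73 in Zbtb46-GFP+ cells. In WT CDPs 14 of the 24 lay below the median of all genes and 10 above it, not far from the even split of all genes. Clec9a, the receptor for dead cells that marks cells with cDC1 potential, was at 9.83 and 9.99 in Batf3 KO CDPs and 9.90 and 9.67 in WT CDPs. Of 20 cDC2 genes 0 were called, with a median of 0.13. Their largest difference was that of Cd209a, a C-type lectin, at 8.59 and 8.46 in Batf3 KO CDPs and 7.62 and 7.46 in WT CDPs. Its groups were apart by 0.98 without passing (limma adjusted p = 1). In bulk samples, more cells of a type and more RNA per cell cannot be told apart.

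The pDC list had the highest median of the 19 lists, with no member called. Of 18 measured genes 16 lay above 0 and the median was 0.38, beside 0.01 over all genes tested. At an unadjusted p under 0.05, 4 were higher and 0 lower, against 0.662% and 0.599% of all genes. In 9 the groups did not overlap, all with Batf3 KO higher, against 9.87% of all genes. The list was not tested as a set. Siglech, a lectin receptor of pDCs, was at 10.55 and 10.00 in Batf3 KO CDPs, 9.90 and 9.70 in Id2 KO CDPs, and 9.69 and 8.51 in WT CDPs. Its difference was 1.18 (SE 0.46, limma adjusted p = 1), and the 2 WT arrays lay farther from each other than the groups did at their closest. Ly6d, a surface protein of lymphoid-primed progenitors, was at 9.51 and 8.69 in Batf3 KO CDPs and 8.53 and 7.51 in WT CDPs. Its Batf3 KO arrays lay above both WT arrays, and the difference of 1.08 did not pass (limma adjusted p = 1). Averaged over the list, the log2 signal was 9.11 and 8.77 in Batf3 KO CDPs, 8.65 and 8.58 in Id2 KO CDPs, and 8.80 and 8.29 in WT CDPs. Batf3 KO replicate 2 lay below WT replicate 1, while at each replicate number the Batf3 KO array was the higher one. Whether the numbers pair the arrays is not settled.

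Among growth factor receptors, all 16 measured genes lay above 0, with 0 calls and 0 at an unadjusted p under 0.05 in limma. They ran from 0.01 for Epor, the erythropoietin receptor, to 0.34 for Il7r, the interleukin-7 receptor, with a median of 0.14. Flt3, the receptor whose ligand drives dendritic cell development, was at 11.58 and 11.21 in Batf3 KO CDPs and 11.54 and 11.16 in WT CDPs, a difference of 0.05. Kit differed by 0.14 and Csf1r by 0.16.

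Cell division and maturation genes were close to 0. The 26 cell division genes ran from -0.12 to 0.14 with a median of 0.01, and 0 were called with limma. Among 25 stem and progenitor genes 0 were called and the median was -0.09, with the lowest value in Muc13 (-0.64), a membrane mucin. The 13 MHC class II genes had a median of -0.00 and 0 calls, although H2-Aa, a class II alpha chain, was at 6.55 and 6.35 in Batf3 KO CDPs and 7.54 and 6.65 in WT CDPs. Its difference of -0.64 did not pass (limma adjusted p = 1). The 17 p53 target and DNA damage genes had a median of -0.03 and the 19 immediate early and stress genes of 0.06, with 0 calls in both.

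Markers of other bone marrow cells were also read. The 20 neutrophil and granule genes had the lowest median of the lists, -0.22, with 0 calls and 0 at an unadjusted p under 0.05 in limma. Averaged over that list, the log2 signal was 8.90 and 8.45 in Batf3 KO CDPs, 9.88 and 8.80 in Id2 KO CDPs, and 9.23 and 8.59 in WT CDPs. The spread within each genotype was wider than the difference between Batf3 KO and WT. Lymphoid and B-lineage genes had a median of 0.10, monocyte and macrophage genes 0.10, and erythroid and megakaryocyte genes 0.08. Mast cell, basophil and eosinophil genes had a median of -0.00, and T, NK and innate lymphoid genes 0.03, with 0 calls in all of these lists.

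**Figure D5:**
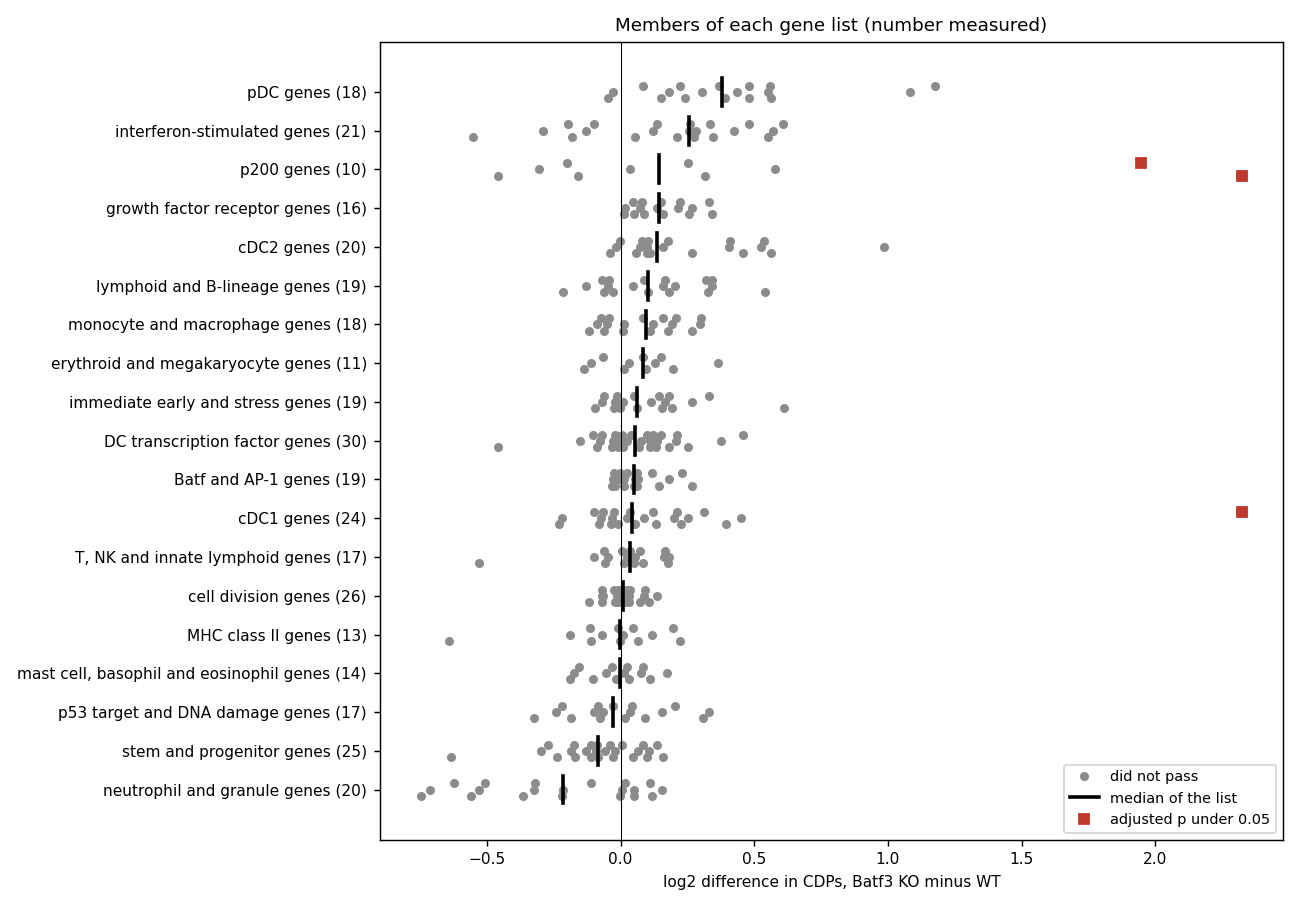
log2 difference, Batf3 KO minus WT, in CDPs for each measured member of the 19 gene lists, ordered by the median of the list (black line); red squares passed at an adjusted p under 0.05. Ifi202b and Ifi205 are the squares, Ifi205 being in both the p200 and the cDC1 list, and pDC genes have the highest median at 0.38.

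Several genes with groups that did not overlap differed widely without passing. Among higher ones, Cd7, a lymphoid surface receptor, was at 10.74 and 10.36 in Batf3 KO CDPs, 9.87 and 9.10 in Id2 KO CDPs, and 9.94 and 8.54 in WT CDPs, a difference of 1.31. Samd9l, an interferon-inducible restrainer of myeloid growth, differed by 1.14 and Rbm44, an RNA-binding protein of germ cells, by 1.09. Among lower ones, Syce1, a part of the synaptonemal complex of meiosis, was at 6.18 and 6.09 in Batf3 KO CDPs and 9.60 and 9.004 in WT CDPs. Its difference of -3.17 was the largest of all genes in size, with a large SE of 0.55 (limma adjusted p = 0.285).

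Gdf3, a growth factor of the TGF-beta family, was at 6.10 and 6.41 in Batf3 KO CDPs and 7.45 and 9.001 in WT CDPs, where the 2 WT arrays themselves lay far apart. Its difference was -1.97 (SE 0.54). Cd59a, an inhibitor of complement, differed by -1.22, Stox2 by -1.06, and Tmem267 by -1.03. Mir20a, a microRNA that promotes cell growth, differed by -0.98, the centromere protein gene Cenpv by -0.98 and the histone variant gene Macroh2a2 by -0.96. None of these passed (limma adjusted p from 0.89 to 1). Kcnma1, a potassium channel gene named after its values were seen, differed by -2.71, but its groups overlapped. It was at 5.57 and 5.60 in Batf3 KO CDPs, 13.10 and 12.67 in Id2 KO CDPs, and 11.15 and 5.44 in WT CDPs.

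Outside the annotated genes, the array held 28853 probe sets, and a test over all of them called 12. Of these, 5 were the genes above, 5 were sex-linked and 2 had no gene symbol. The unnamed probe set 10351206 was at 5.86 and 5.74 in Batf3 KO CDPs, 8.60 and 8.04 in Id2 KO CDPs, and 8.39 and 8.56 in WT CDPs. Its difference of -2.67 (limma adjusted p = 0.000802) came with Id2 KO and WT arrays, both from chimeric mice, at a like level. The other, 10608138, was at 8.48 and 8.06 in Batf3 KO CDPs, 8.40 and 8.24 in Id2 KO CDPs, and 5.43 and 5.92 in WT CDPs.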

How the data were processed

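RNA of cells sorted on a FACSAria Fusion was labelled with the Affymetrix WT Pico kit, per the labels' protocols. The authors deposited linear probe set intensity made with Affymetrix Expression Console and RMA, per the submitters' processing notes; the annotation used by the authors and the genome build are not given in the sources used here. The number of arrays limits the precision.

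From these values log2 was taken. Of 28853 probe sets, 21789 had 1 symbol in GEO's platform annotation, 1621 had several and 5443 none. The probe set with the highest mean stood for each of 19938 genes, of which 19856 matched RefSeq and 748 on X or Y were left out. limma 3.58.1 (R 4.3.3) fitted 6 group means over 12 arrays (6 residual degrees of freedom, empirical Bayes without trend, two-sided, Benjamini-Hochberg over 19190 genes). In simulated data for the Batf3 KO and WT CDP comparison on 19190 genes it recovered 73 of 100 genes changed by 1 log2 unit and 95 of 100 changed by 2, with 6 false calls among 174. The simulated noise was independent between arrays, while residuals of the real CDP arrays correlated at up to 0.685. So many planted changes also loosen the adjusted p cutoff, compared with the 5 real calls. The simulated recovery is therefore no measure of the sensitivity of the real comparison.

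The comparison, the 19 autosomal gene lists and the naming rule were chosen with earlier results of these data known. The rule names regulators, called genes, the widest differences that did not pass but had an unadjusted p under 0.05 and no overlap, 10 genes on each side of Batf3, and up to 4 members per list. Further genes, among them Kmo, Itln1, Gatm, Clnk, Myof, Shtn1, Kcnma1, Ifi203, Aim2, Iars2, Rab3gap2, Clec9a and the receptors at the later stage, were named after their values were seen. Alternatives were fits on other sets of arrays, blocks, quantile and 75th percentile scaling, filters, a trend, X and Y genes kept, other probe set rules and each array left out.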

Additional observations from a re-analysis of the deposited data

Results flagged for a closer look

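The effect of Batf3 loss in CDPs differed from that in Zbtb46-GFP+ cells for 19 genes in limma's interaction test, given here as the CDP effect minus the later effect in log2 units. Ifi205 (2.90) was the only one that passed in CDPs, where it rose. The other differences above 0 belonged to genes lower without Batf3 in Zbtb46-GFP+ cells: Gpr141b (4.71), Rasgrp3 (3.73), Cd36 (3.58), Gcsam (3.57), Snx22 (3.33), Xcr1 (3.16), Batf3 (2.79), Tlr3 (2.32), BC028528 (2.32), Fgd6 (2.06), Ppt1 (1.97), Fcrla (1.82), Gatm (1.69), Tubb2a (1.67) and Shtn1 (1.50). Of these 15, 10 had a WT CDP signal below the median of all genes, where a fall would be harder to see, and 5 above it. All genes split evenly at that median. Those below 0 belonged to genes higher there without Batf3, namely Hpgd (-2.29), Cd209e (-1.69) and Tnfsf8 (-1.20).

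Signals outside the tested genes also separated Batf3 KO from WT CDPs. The Y-linked genes were higher, Kdm5d by 3.22, Uty by 3.10 and Eif2s3y by 3.23. Probe set 10608138, which has no gene symbol here, was higher by 2.59, and Id2 KO CDPs had its high level too.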

How the results depend on the processing

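All 5 calls came from 2 arrays a side, and their differences kept their sign under every alternative run. Ifi202b and Lipo3 passed in 15 of 16 alternatives, Ifi205 in 12 of 17, Olfr432 in 10 of 17 and Gja1 in 7 of 16. The number of genes called in Batf3 KO against WT CDPs, 5, became 3 on the 6 CDP arrays alone, 0 on all 15 arrays (the 3 arrays on another scale widen the spread), 19 (12 higher, 7 lower) with the higher-signal array of each group as a block, 2 with genes below the median signal left out, 10 with X and Y kept and 12 over every probe set, the last chosen after seeing the data. Leaving out 1 array gave 4 without WT CDP replicate 1 and 2 without WT CDP replicate 2 or either Batf3 KO CDP replicate. In Zbtb46-GFP+ cells, 57 became 30 on the 4 arrays of the comparison, 0 on 15 arrays, 28 with a term for the 3 arrays, 232 with the higher-signal block, 112 with quantile normalization and 32 without dim genes, and 28 (without Batf3 KO replicate 2) to 85 (without WT replicate 2) with 1 array left out; without Batf3 KO replicate 3 it was 35. The interaction count, 19, became 12 on the 8 arrays of the comparison, 0 on 15 arrays, 8 with the term, 42 with the higher-signal block and 10 without dim genes, and 7 (without Batf3 KO CDP replicate 2) to 35 (without WT Zbtb46-GFP+ replicate 2) with 1 array left out. Batf3 KO against Id2 KO CDPs, 5, became 1 on the 6 CDP arrays, 0 on 15 arrays, 3 with the term, with 75th percentile centring or without dim genes, 12 with the higher-signal block and 8 with every single-symbol probe set, and 1 (without either Batf3 KO replicate) to 9 (without Id2 KO CDP replicate 2) with 1 array left out. Id2 KO against WT CDPs, 0, became 5 with X and Y kept and 0 to 1 with 1 array left out. The count of list members called in CDPs, 2, became 1 on the 6 CDP arrays, 0 on 15 arrays and 1 without dim genes, and 1 (without WT CDP replicate 2 or either Batf3 KO CDP replicate) to 2 with 1 array left out. The cause of these changes was not tested further. Same-numbered CDP arrays had residual correlations of 0.53 to 0.685, over 2 pairs, which does not settle whether numbers pair the arrays. A replicate block in the 12-array fit called 5 genes in Batf3 KO against WT CDPs, and the 6 CDP arrays with a replicate block, tried after seeing the data, called 27 there, 27 against Id2 KO, 3 for Id2 KO against WT and 4 list members. Of 1901 values of named genes that did not pass, 49 changed sign under an alternative.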
